A study of Mus musculus with 28 samples.

Results

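The pairs with a middle landmark score were 925 of 4621 wells, each holding a hepatocyte sorted together with an attached CD31+ cell from the liver of C57BL/6 male mice. They were chosen by transcripts of 5 genes. The UMIs of the pericentral genes Cyp2e1, Cyp2c29 and Oat and those of the periportal genes Cyp2f2 and Hal were each divided by their mean over wells, and the score was the pericentral part of their sum. Wells between the 40th and 60th percentile of the score formed the mid-score group. They were set against the 925 wells of the lowest 20% (the periportal end) and the 1234 wells at or above the 80th percentile (the pericentral end), each on its own. The 80th percentile was a score of 1, so every well with no UMI of Cyp2f2 and Hal, 26.7% of all wells, belonged to the pericentral end. That name states the score only, because pericentral genes were higher in wells scored just below 1, as given below.

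The wells of all 3 groups came from 1 table of 17 libraries of 3 mice, aged 6 to 7 weeks and fasted for 2 h, and were assigned by the score. CD31 is a surface protein of endothelial cells, and a pair holds the RNA of both cells. Transcripts were counted with MARS-seq, a plate method that tags the 3' end of each captured mRNA molecule with a unique molecular identifier (UMI). A second table of single non-parenchymal cells, from 2 mice aged 3 to 4 months, served here only to choose endothelial genes. No source used here maps wells to libraries or mice, so each group is 1 sample, and no difference carries a test. Levels are UMIs per 1000000 gene UMIs of a group, with 95% intervals that cover counting error only.

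The liver lobule is the repeating unit of the organ. Blood enters it at the portal tracts and leaves at the central vein, and hepatocytes along this path differ in their enzymes. Between the ends lies the mid-lobular layer, where hepcidin, the hormone that lowers iron release into blood by acting on the iron exporter ferroportin, is known to be strongly expressed. Mice carry 2 hepcidin genes, Hamp and Hamp2. BMP ligands from liver endothelial cells and the cytokine IL-6 are known inducers of Hamp in hepatocytes, through SMAD proteins and STAT3.

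The hepcidin genes led the abundant genes of the mid-score pairs, so their promoters are shown, from 250 to 11 bases before the annotated start (RefSeq, GRCm38.p6, minus strand of chromosome 7). Hamp is at chr7:30944040-30944279 and Hamp2 at chr7:30924192-30924431. Capitals mark GGCGCC, the core letters of the BMP-responsive element known from Hamp, and TTCNNNGAA, a STAT motif, both searched on both strands.
Hamp: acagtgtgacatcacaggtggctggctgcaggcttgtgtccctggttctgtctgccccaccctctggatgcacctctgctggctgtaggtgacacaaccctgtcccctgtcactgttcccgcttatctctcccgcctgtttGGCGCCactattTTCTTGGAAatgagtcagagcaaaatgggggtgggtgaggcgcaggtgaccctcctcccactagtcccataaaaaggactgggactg
Hamp2: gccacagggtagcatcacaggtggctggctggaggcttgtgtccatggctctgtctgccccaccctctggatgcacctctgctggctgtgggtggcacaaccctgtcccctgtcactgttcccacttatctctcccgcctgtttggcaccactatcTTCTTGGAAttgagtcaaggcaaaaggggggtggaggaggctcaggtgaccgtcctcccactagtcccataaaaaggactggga
The 2 stretches were identical at 218 of 237 aligned bases. Both held the STAT motif with the same letters. GGCGCC occurred in Hamp only, where Hamp2 carries the substitution G145A, counted from 1 at the 5′ end of the printed Hamp stretch. Of 27025 promoters cut to the same window, 9% held GGCGCC and 6.91% held TTCNNNGAA. The last 200 bases of the 2 transcripts in the GRCm38 annotation were identical at 171 of 190 aligned bases, so reads of the 3' end can be shared, and the split of UMIs between Hamp and Hamp2 is uncertain.

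The mid-score pairs did not lie halfway between the ends. In the genes that chose them, Cyp2e1 stood at 6868 UMIs per 1000000 in mid-score pairs, 272 at the periportal end and 10336 at the pericentral end. Cyp2f2 stood at 257 in mid-score pairs, 3002 at the periportal end and 0 at the pericentral end, where the rule admits none. The median mid-score well had 86 UMIs of the pericentral genes and 2 of the periportal genes, and a score of 0.844. The limits were 0.502 and 0.934, the wells just inside and just outside each limit had the same score to 3 digits, and 376 of the 925 wells lay within 0.05 of a limit.

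Position genes that the score did not use placed the group on the pericentral side. Of 32 listed, 29 had at least 100 UMIs and 23 of these differed at least 2-fold between the ends. On a scale with 0 at the periportal and 100 at the pericentral end, the mid-score level had a median of 67.9% over the 23 genes, 61.2% over 14 pericentral genes and 91.6% over 9 periportal genes. Sds, the serine dehydratase of gluconeogenesis, had 10.7 UMIs per 1000000 in mid-score pairs, against 562 at the periportal and 8.94 at the pericentral end. Glul, the glutamine synthetase of the cells that touch the central vein, had 171 in mid-score pairs, against 95.5 at the periportal and 631 at the pericentral end. On this linear scale the periportal genes lay near the pericentral end, although 12 of 15 tested had a log2 ratio over it of at least 0.32, the limit used for calls. Glul, the glutamate transporter gene Slc1a2 and the carboxylate transporter gene Slc13a3 were at 9.53% to 14.1% of the way. Because of this the group is called mid-score here, and not the middle of the lobule.

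**Figure D1:**
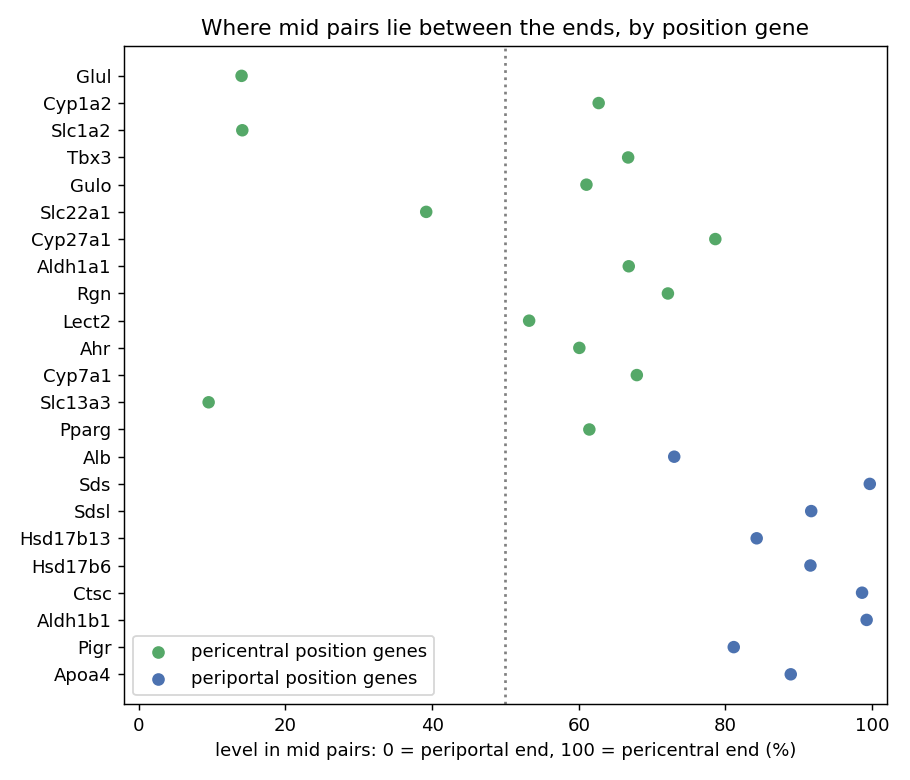
Level of 23 position genes in mid-score pairs, as a percentage of the way between the periportal end (0) and the pericentral end (100), with pericentral genes in green and periportal genes in blue. Periportal genes lie between 73.0% and 99.7%, and pericentral genes between 9.53% and 78.6%.

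Most genes of the mid-score pairs lay between the ends, and few stood apart from both. Of 9431 genes with at least 100 UMIs over the 3 groups, outside the 5 score genes, 4944 lay between the ends, 2830 were higher than both and 1657 lower than both. A gene was called when its log2 ratio to each end was at least 0.32, or at most -0.32 (the mid-score level at 0.8 of each end or less). That gave 171 genes above both ends, 1.81% of those tested, and 92 below both ends, 0.976%. Both ratios share the mid-score level, so a high or low count there moves both at once. Among genes of 100 to 300 UMIs 128 were above and 75 below, while of 3692 genes with at least 1000 UMIs 9 were above and none below. The counting intervals of both ratios excluded 1 for 53 of the 171 genes and 18 of the 92. The median of all genes was 0.10 (log2) over the periportal and -0.03 over the pericentral end, and size factors that remove this shift gave 127 above and 124 below.

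The 9 abundant genes above both ends, named after their values were seen, fall into 4 kinds. Hamp and Hamp2 encode hepcidins. Fasn (fatty acid synthase) and Pmvk (phosphomevalonate kinase of cholesterol synthesis) make lipids, and Rdh11 (a retinol dehydrogenase) and Ces1e (a carboxylesterase) act on retinoids and esters. Ccnd1 encodes cyclin D1, which drives entry into the cell cycle. Flt4 (VEGF receptor 3) and Lyve1 (a hyaluronan receptor) mark sinusoidal endothelium.

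**Figure D2:**
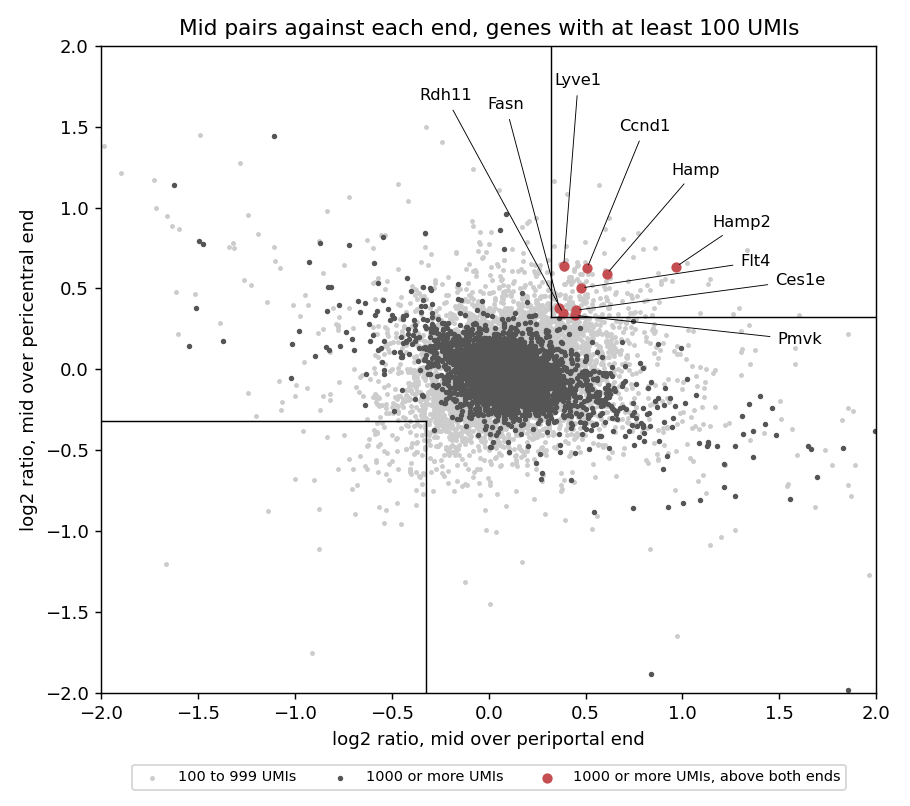
Log2 ratio of the mid-score level to the periportal end (horizontal) and to the pericentral end (vertical) for the genes with at least 100 UMIs; 71 genes outside the axes are not drawn. Black lines bound the genes called above both ends (upper right) and below both (lower left), and the 9 red genes with at least 1000 UMIs are all in the upper right.

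Hamp was 1.53-fold over the periportal and 1.51-fold over the pericentral end. It had 595 UMIs per 1000000 in mid-score pairs (6076 UMIs), against 390 at the periportal end (4565 UMIs) and 395 at the pericentral end (5258 UMIs). A mid-score well held 0 UMIs at the lowest, 4 at the median and 71 at the highest. The wells of the periportal end held 0, 2 and 74, and those of the pericentral end 0, 2 and 94. The ranges of single wells overlapped throughout, and 727 mid-score, 652 periportal and 833 pericentral wells had at least 1 UMI. The log2 ratios were 0.61 (0.55 to 0.66) over the periportal and 0.59 (0.54 to 0.64) over the pericentral end. Fewer expressing cells and less RNA per cell cannot be told apart in these sums.

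Hamp2 was 1.96-fold over the periportal and 1.55-fold over the pericentral end. It had 492 UMIs per 1000000 in mid-score pairs, 252 at the periportal and 317 at the pericentral end. The wells held 0, 2 and 186 UMIs in mid-score pairs at the lowest, median and highest, 0, 1 and 155 at the periportal end, and 0, 1 and 120 at the pericentral end. Hamp2 was concentrated in few wells: the 92 mid-score wells with the most UMIs held 63.3% of its UMIs, against 39.6% for Hamp. The ends were alike in this. The top 92 periportal wells held 57.6% of Hamp2 and 45.9% of Hamp, and the top 123 pericentral wells 69.0% and 46.3%. Both genes were seen together in 569 mid-score wells, Hamp alone in 158 and Hamp2 alone in 68. Over the 925 mid-score wells, which share plates and differ in depth, the 2 levels per well had a Pearson r of 0.11, given as a description. It was 0.14 at the periportal and 0.18 at the pericentral end.

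Along the whole score, both genes had their highest level inside the lobule and not at an end. In 10 equal groups of all wells ordered by the position genes, from periportal to pericentral, Hamp had 320, 459, 619, 669, 643, 622, 527, 487, 360 and 117 UMIs per 1000000. Hamp2 had 192, 302, 458, 480, 460, 525, 436, 361, 258 and 61.5. Hamp was highest in the fourth group and Hamp2 in the sixth, and both were lowest in the outermost pericentral group. Ties left 9 groups by the 5-gene score, in which Hamp was highest in the fourth, at 730, and Hamp2 in the fifth, at 567. The fourth group had a median score of 0.294, below the lower limit of 0.502 of the mid-score wells. Hamp was thus highest on their periportal side and not in the mid-score wells themselves. The eighth of these held 150 wells with a median of 21149 UMIs, against 9272.5 in the ninth, where the score is 1. The eighth group had the lowest level of both genes. The listed pericentral position genes were all highest in the eighth group, just below a score of 1. Glul had 985 there and 631 in the ninth group, and Cyp1a2 had 2302 and 1871. In the ninth group Hamp stood at 395 and Hamp2 at 317, above their 345 and 204 in the first group. In the position-gene groups the median depth ran from 9915.5 to 11126 UMIs. Whether depth bears on the low level in the eighth score group was not tested.

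**Figure D3:**
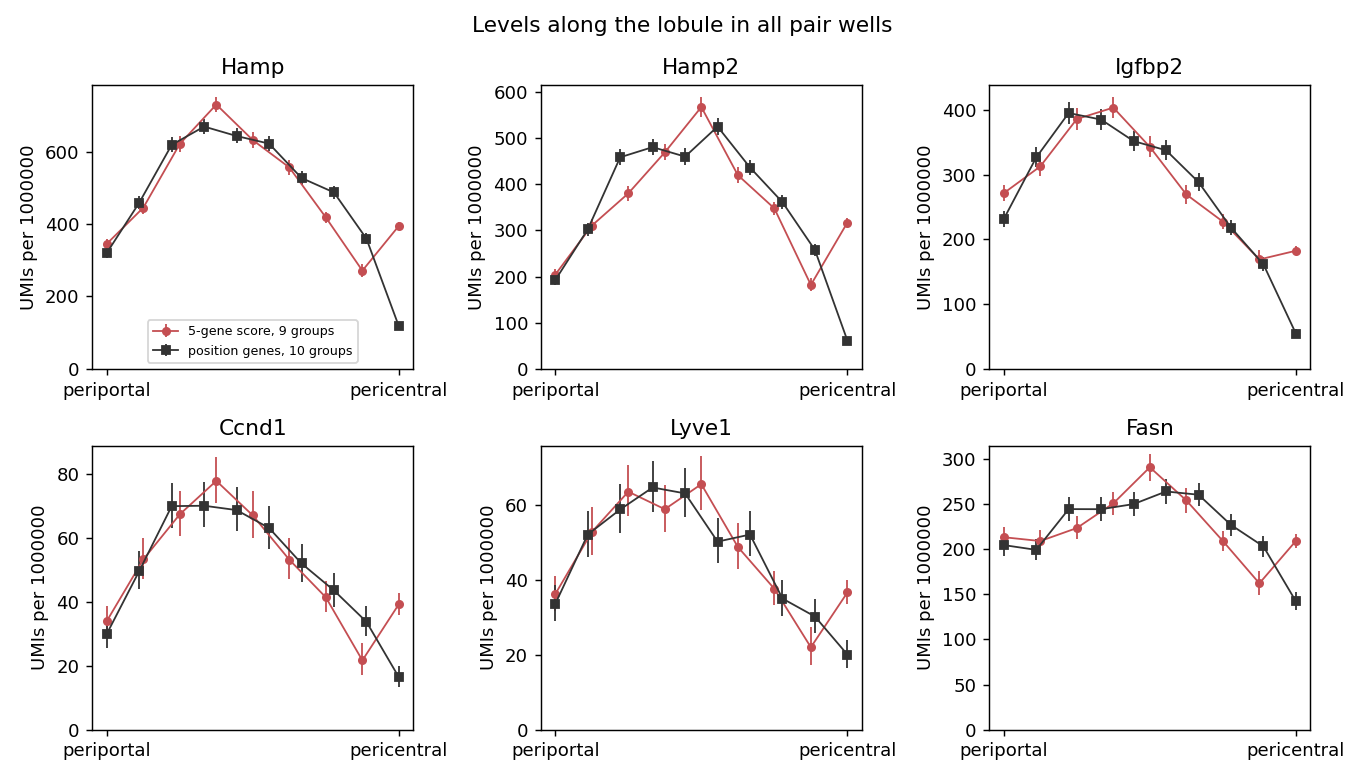
UMIs per 1000000 of 6 genes in all pair wells, from periportal to pericentral, in 9 groups of the 5-gene score (red) and 10 groups of a score from the position genes (black), with 95% Poisson intervals. Hamp, Hamp2, Igfbp2, Ccnd1 and Lyve1 are highest inside the lobule under both scores. By the 5-gene score Hamp, Igfbp2 and Ccnd1 are highest in the fourth group, on the periportal side of the mid-score wells.

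The well names are numbers that fall into 17 blocks. The block numbers 1 to 16 and 41 are also those in the library titles, but no source says that blocks are libraries. The groups drew on them unequally: blocks 10 to 16 held 44.1% of mid-score wells, 31.2% of periportal and 59.3% of pericentral wells, and block 1 held no mid-score well. With percentiles taken within each block, Hamp in mid-score pairs was above both ends in 15 of 17 blocks. Its lowest, median and highest block level was 256, 571 and 904 in mid-score pairs, 224, 399 and 785 at the periportal end, and 217, 385 and 673 at the pericentral end. Hamp2 was above both ends in 12 of 17 blocks and below both in 3, blocks 10, 11 and 13. These have the highest median scores of all blocks, 0.96, 0.951 and 0.957. Whether that bears on the order of Hamp2 was not tested. Hamp was below both ends in block 10, between them in block 11 and above both in block 13. Hamp2 mid-score levels ran from 151 to 1830 between blocks, with blocks 1 and 2 the highest at 1830 and 1246. Block 1 has only 8 wells, and its value rests on 124 UMIs in 2 wells. Without it Hamp was above both ends in 14 of 16 blocks and Hamp2 in 11 of 16. Summed over blocks, Hamp was 1.44-fold over the periportal and 1.53-fold over the pericentral end, and Hamp2 2.08-fold and 1.47-fold.

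**Figure D4:**
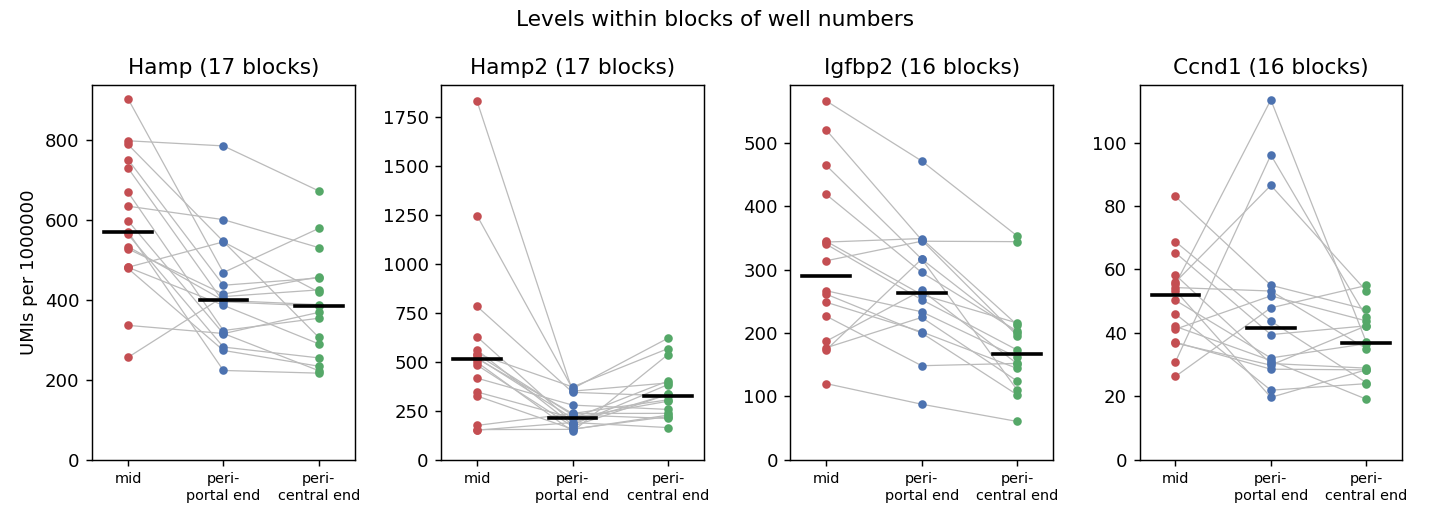
UMIs per 1000000 of Hamp, Hamp2, Igfbp2 and Ccnd1 within blocks of well numbers, with percentiles taken in each block. Each point is a block in which the gene reached 30 UMIs or more, grey lines join a block, and black bars are medians. Hamp is above both ends in 15 of 17 blocks, Ccnd1 in 10 of 16.

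The size of the hepcidin difference moved with how the groups were drawn. With the 203 wells that scored from 0.4 to 0.6, a range chosen after seeing the data, Hamp had 779 UMIs per 1000000, 2.00-fold over the periportal and 1.97-fold over the pericentral end. With 3 equal groups in place of the percentiles it was 1.19-fold and 1.58-fold, past the limit at only 1 end, while Hamp2 was 1.51-fold and 1.53-fold. Ordered by the position genes, with 925 wells in each group, Hamp was 1.63-fold and 2.64-fold and Hamp2 1.99-fold and 3.07-fold.

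Of 30 tested genes of iron handling and BMP signalling, 4 were above both ends and none below, against 1.81% and 0.976% of all genes. The other 2 called were Smad9, a BMP-regulated SMAD, and Acvr1, a type I BMP receptor. Smad9 had 11.2 UMIs per 1000000 in mid-score pairs, 8.80 at the periportal and 8.04 at the pericentral end. Acvr1 had 9.01 in mid-score pairs, 5.38 at the periportal and 7.06 at the pericentral end. One interval of each includes no difference, for Smad9 the log2 ratio over the periportal end (-0.05 to 0.74) and for Acvr1 that over the pericentral end (-0.08 to 0.78). Smad9 was at 0.92-fold of the periportal end with percentiles within blocks, and ordered by the position genes at 0.96-fold. In that order Acvr1 had log2 ratios of 0.28 and 0.13, and Hamp and Hamp2 were the only called members of the list. Only block 8 reached 30 UMIs of Acvr1, with 26 in mid-score, 19 in periportal and 21 in pericentral pairs. Its levels there were 36.1, 24.2 and 31.7 in that order, well over those of the summed groups. The list median was 0.05 (log2) over the periportal end, under the 0.10 of all genes, and 0.16 over the pericentral end, above the -0.03 of all genes.

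The ligands and brakes of the pathway, named here after their values were seen, were not called. Bmp2, the endothelial ligand that induces hepcidin, had 74.8 in mid-score pairs, 58.1 at the periportal and 60.1 at the pericentral end. Its log2 ratios were 0.36 and 0.32, the second just short of the limit. On the same scale all endothelial genes together, defined below, had log2 ratios of 0.13 and 0.15. Bmp6, the second such ligand, had only 55, 60 and 62 UMIs in mid-score, periportal and pericentral pairs, too few to place it. Tmprss6, the protease that lowers hepcidin, had 349 in mid-score pairs, 327 at the periportal and 354 at the pericentral end. Id1, a target gene of BMP signalling, had 8.71 in mid-score pairs, 9.23 at the periportal and 5.71 at the pericentral end. Smad7, an inhibitory SMAD induced by BMP, had 16.9, against 15.5 at the periportal and 13.7 at the pericentral end. Trf (transferrin) and Hpx (hemopexin), which carry iron and heme in blood, lay between the ends, at 12129 and 4739 in mid-score pairs, against 14276 and 8331 at the periportal and 10826 and 3333 at the pericentral end.

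Of 7 candidate mid-lobular genes, Hamp, Hamp2 and Ccnd1 were above both ends. The list was chosen with knowledge of this liver layer and of earlier results, so this count is no independent evidence. Igfbp2, an IGF-binding protein secreted by hepatocytes, had 306 in mid-score pairs, 290 at the periportal and 182 at the pericentral end, 1.05-fold and 1.68-fold. Its wells held 0, 2 and 30 UMIs at the lowest, median and highest in mid-score pairs, 0, 2 and 27 at the periportal and 0, 1 and 33 at the pericentral end. Within blocks Igfbp2 was above both ends in 11 of 16. In the 10 position-gene groups Igfbp2 was highest in the third, at 395, beside 231 in the first and 54.6 in the last. Size factors and 3 equal groups put the mid-score level of Igfbp2 at 0.98-fold and 0.95-fold of the periportal end, so its order there is not settled.

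The other 3 candidates were not called. Cyp8b1, the sterol 12-alpha-hydroxylase that sets the cholic acid share of bile acids, had 271 in mid-score pairs, 198 at the periportal and 259 at the pericentral end. It was above the periportal end in 17 of 17 blocks and above the pericentral end in 5. Mup3, a major urinary protein, had 16569 in mid-score pairs, 21242 at the periportal and 15152 at the pericentral end. Reads of the near-identical Mup genes may be shared between them. Igf1, the growth factor made in response to growth hormone, had 1584 in mid-score pairs, 1949 at the periportal and 1352 at the pericentral end. Both lay between the ends.

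Of 15 tested cell cycle genes, 5 were above both ends and none below, beside 1.81% of all genes above. Ccnd1 had 60.6 UMIs per 1000000 in mid-score pairs, 42.6 at the periportal and 39.3 at the pericentral end, 1.42-fold and 1.54-fold. Single wells held 0 at the lowest, 0 at the median and 10 UMIs at the highest in mid-score pairs, up to 9 at the periportal and up to 7 at the pericentral end. Blocks showed Ccnd1 above both ends in 10 of 16 and below both in 3. With percentiles within blocks the sums of Ccnd1 were 50.9 in mid-score pairs, 47.5 at the periportal and 38.3 at the pericentral end, 1.07-fold and 1.33-fold, and the call was lost. Ordered by the position genes Ccnd1 was 1.66-fold and 2.62-fold, and was highest in the fourth of 10 groups, at 70.1, beside 29.98 in the first and 16.4 in the last. Ccnd1 was 6.10 times as high in endothelial-marked single cells as in all pairs, so both cells of a pair can add to it.

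The other 4 called cell cycle genes rest on few UMIs. Mcm6 and Mcm3, subunits of the replicative helicase, had 87 and 67 UMIs in mid-score pairs, against 49 and 54 at the periportal and 72 and 64 at the pericentral end. Rrm2, the regulated subunit of ribonucleotide reductase, had 139 in mid-score pairs, 121 at the periportal and 107 at the pericentral end. Mki67, a marker of cycling cells, had 57 UMIs in 29 mid-score wells, 16 UMIs in 9 periportal and 54 UMIs in 32 pericentral wells. With percentiles within blocks, Mki67 stood at 3.94 per 1000000 in mid-score pairs, 1.22 at the periportal and 3.92 at the pericentral end. Single wells weighed heavily: of the 1830 UMIs of the list without Ccnd1 in mid-score pairs, 84 came from 1 well, against at most 18 of 1760 at the periportal and 39 of 2146 at the pericentral end. The list without Ccnd1 stood at 179 per 1000000 in mid-score pairs, 150 at the periportal and 161 at the pericentral end. Wells with at least 5 such UMIs numbered 84 of 925 in mid-score pairs, 79 of 925 at the periportal and 89 of 1234 at the pericentral end. Without the UMIs in those wells the levels were 108 in mid-score pairs, 106 at the periportal and 105 at the pericentral end. The group totals were kept, and the wells were chosen by the UMIs compared. Removing them can therefore draw the groups together by itself, and the near-equal levels settle nothing. Of the 15 genes 2 were called with percentiles within blocks, Mcm3 and Mcm6.

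Among genes of at least 200 UMIs whose intervals exclude 1 at both ends, Mcm6 had the highest smaller ratio, at 2.03-fold and 1.57-fold. In the 9 score groups the genes of at least 200 UMIs with a profile most like that of Mcm6 were Atad2, Sfrs18, Prkar2a, Gm6483 and Lrp10, with Pearson r of 0.94, 0.93, 0.92, 0.92 and 0.91. These are descriptions over 9 groups that share libraries and depth.

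Of 17 lipogenesis genes 7 were higher than both ends and 1 lower than both, beside 2830 and 1657 of all 9431 genes. Fasn had 272 UMIs per 1000000 in mid-score pairs, 212 at the periportal and 209 at the pericentral end, 1.29-fold and 1.30-fold, and was the only one called, beside 1.81% of all genes. Scd1, the stearoyl-CoA desaturase, named after its values were seen, had 5205, against 4206 at the periportal and 4418 at the pericentral end. Acly, which makes cytosolic acetyl-CoA, lay between the ends, at 126 in mid-score pairs, 190 at the periportal and 79.9 at the pericentral end. Fasn was above both ends in 10 of 17 blocks, whose mid-score levels ran from 141 to 945. Blocks 1 and 2 were the highest, at 945 and 871, beside a median of 226 over blocks. In block 2 the periportal end held 967 and the pericentral end 771. With percentiles within blocks Fasn was 1.14-fold and 1.14-fold, and no gene of the list was called.

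Pmvk was the 1 gene called of 19 in cholesterol synthesis and uptake, beside 1.81% of all genes, at 45.8 in mid-score pairs, 33.7 at the periportal and 36.4 at the pericentral end. Of the 19 genes 12 were higher than both ends and none lower than both, beside 2830 and 1657 of all 9431 genes. The list median was 0.21 and 0.17 (log2) over the periportal and pericentral ends. Sqle (squalene epoxidase), named after its values were seen, lay between the ends, at 44.8 in mid-score pairs, 67.8 at the periportal and 38.7 at the pericentral end. Within blocks the log2 ratios of Pmvk were 0.57 and 0.32, just short of a call at the pericentral end.

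Ces1e had 210 in mid-score pairs, 153 at the periportal and 163 at the pericentral end, and was above both ends in 12 of 16 blocks and below both in none. Rdh11 had 46.4 in mid-score pairs, 35.5 at the periportal and 36.5 at the pericentral end, and was above both in 9 of 16 blocks and below both in 5. Its mid-score level was highest in block 2, at 132, beside a median of 38.5 over blocks. In that block the periportal end held 65.7 and the pericentral end 124. The groups drew 20 mid-score, 18 periportal and 11 pericentral wells from block 2. With percentiles within blocks Ces1e was 1.31-fold and 1.17-fold and Rdh11 1.16-fold and 1.07-fold, so neither was called.

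RNA of the endothelial partner made up a slightly larger share of the summed UMIs of mid-score pairs. Endothelial genes were 1393 genes with at least 10 UMIs per 1000000 in 501 endothelial-marked single-cell wells, and there at least 20 times their level in all pairs. They gave 0.659% of gene UMIs in mid-score pairs, 0.604% at the periportal and 0.592% at the pericentral end, log2 ratios of 0.13 and 0.15. The median well held 61 endothelial UMIs in mid-score pairs, 65 at the periportal and 55 at the pericentral end. The highest well held 908, 374 and 343 in the same order. Of 392 endothelial genes among the 9431 tested, 32 were above both ends and 6 below, against 139 and 86 of 9039 other genes. On a second scale, per 1000000 UMIs of endothelial genes, 29 of 550 genes with at least 60 UMIs were above both ends, 5.27%, and 28 below, 5.09%. Dividing by their own total centres these genes, so that balance follows from the scale. Per 1000000 of all gene UMIs 58 of the same 550 were above and 18 below.

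Flt4 and Lyve1 were the deepest of the 5 endothelial genes named above both ends. Per 1000000 endothelial UMIs Flt4 had 6638 in mid-score pairs, 5208 at the periportal and 5212 at the pericentral end, 1.27-fold over each. Lyve1 had 8643 in mid-score pairs, 7218 at the periportal and 6176 at the pericentral end, 1.20-fold and 1.40-fold, so on this scale it was not called. Per 1000000 of all gene UMIs Lyve1 had 57.0 in mid-score pairs, 43.6 at the periportal and 36.6 at the pericentral end, and wells reached 18 UMIs in mid-score pairs, 10 at the periportal and 7 at the pericentral end. Lyve1 was above both ends in 12 of 16 blocks and Flt4 in 8 of 15. With percentiles within blocks, per 1000000 of all gene UMIs, the log2 ratios were 0.26 and 0.58 for Lyve1 and 0.24 and 0.36 for Flt4, short of a call. In the 10 position-gene groups Lyve1 was highest in the fourth, at 64.6, beside 33.6 in the first and 20.04 in the last.

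The other 3 endothelial genes above both ends had 33 to 42 UMIs in mid-score pairs. Apaf1, a core protein of the apoptosome, had 33, against 17 at the periportal and 14 at the pericentral end. Ccbp2, a decoy receptor for chemokines, had 42, against 16 at the periportal and 30 at the pericentral end. Eml1, a microtubule-associated protein, had 39, against 21 at the periportal and 27 at the pericentral end. Below both ends, Serinc3, a membrane protein, had 30487 per 1000000 endothelial UMIs in mid-score pairs, 34772 at the periportal and 34785 at the pericentral end, 0.88-fold of each. Il6st, the gp130 chain of IL-6 family receptors, had 7677 in mid-score pairs, 9638 at the periportal and 8839 at the pericentral end. Neither was past the 0.8 limit at both ends. Pmepa1, a brake on TGF-beta signalling, had 12 UMIs in mid-score pairs, 30 at the periportal and 29 at the pericentral end. Cbfa2t3, a corepressor, had 55 in mid-score pairs, 95 at the periportal and 93 at the pericentral end. Kctd10, a ubiquitin ligase adaptor, had 56 in mid-score pairs, 88 at the periportal and 94 at the pericentral end.

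Of 11 scavenger receptor genes of endothelium, Lyve1 and Stab1 were above both ends and none was below, beside 1.81% of all genes and 32 of 392 endothelial genes above. Stab1, the stabilin-1 receptor, had 33.0 per 1000000 gene UMIs in mid-score pairs, 24.9 at the periportal and 25.1 at the pericentral end, but was above both in only 4 of 15 blocks and below both in 4. Of 26 endothelial signalling genes, Flt4 alone was above both ends and none was below. Neither list had a call with percentiles within blocks. Known zonated signals named after their values were seen lay between the ends. Wnt2, a Wnt ligand of central endothelium, had 13.3 in mid-score pairs, 4.70 at the periportal and 15.3 at the pericentral end. Dll4, a Notch ligand, had 3.82 in mid-score pairs, 4.78 at the periportal and 1.35 at the pericentral end.

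Of 15 circadian clock genes 1 was above both ends, beside 1.81% of all genes. This was Nfil3, a transcriptional repressor, at 30.5 in mid-score pairs, 23.2 at the periportal and 24.3 at the pericentral end. It was above both in 10 of 15 blocks. Ordered by the position genes Nfil3 was at 1.19-fold and 1.03-fold, with 3 equal groups at 1.17-fold and 1.12-fold, and with size factors at 1.22-fold and 1.26-fold, and at scores of 0.4 to 0.6 its log2 ratios were 0.21 and 0.14. Each of these ended the call. No member of the other lists was called in either direction, and most lay between the ends. The 22 genes of bile acid synthesis and transport had medians of 0.33 and -0.08 (log2) over the periportal and pericentral ends, and the closest to a call was Akr1d1, a steroid reductase of the pathway, with log2 ratios of 0.32 (just under the limit) and 0.12. The 27 acute phase genes had medians of -0.13 and 0.23, with log2 ratios of 0.10 and 0.14 for Stat3. The 29 plasma proteins had medians of -0.21 and 0.15, with Ttr (transthyretin) at 1.04-fold and 1.07-fold.

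Several lists leaned opposite ways at the 2 ends. The 39 xenobiotic genes had medians of 0.60 and -0.17, with Cyp2c70 at 1.45-fold and 1.12-fold, and the 25 genes of fatty acid oxidation 0.19 and -0.16. The 18 proteasome genes were all higher than the periportal and all lower than the pericentral end, with medians of 0.25 and -0.15. The 14 urea cycle genes had medians of -0.17 and 0.16, and the 20 coagulation genes -0.12 and 0.16, with F8 (coagulation factor VIII) at 1.31-fold and 1.20-fold. The 23 genes of oxidative phosphorylation stayed close to both ends, with medians of -0.02 and 0.00. The 21 immediate early and heat shock genes had medians of 0.10 and -0.05. In that list Btg2 and Ier2, which respond within minutes to stimulation, were lower than both ends, at 0.64-fold and 0.68-fold of the periportal and 0.86-fold of the pericentral end each.

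The remaining lists, with medians first over the periportal and then over the pericentral end, were as follows. The 17 genes of the growth hormone axis had 0.08 and -0.09, with Jak2, the kinase of the growth hormone receptor, at 1.22-fold and 1.14-fold. The 17 major urinary protein genes had 0.03 and -0.23, and Mup14 and Mup19 were lower than both ends, at 0.79-fold and 0.96-fold of the periportal and 0.90-fold and 0.76-fold of the pericentral end. The 17 complement genes had -0.07 and 0.13, the 27 of amino acid breakdown -0.06 and 0.05, and the 24 of gluconeogenesis and glycolysis -0.03 and 0.06. In the last of these Pklr, the liver pyruvate kinase, was at 1.06-fold and 1.21-fold. The 7 Wnt target genes tested had 1.05 and -0.54, and the 11 genes of heme synthesis and breakdown 0.45 and -0.30. Nkd1 and Tcf7, targets of Wnt signalling, had only 38 and 41 UMIs in mid-score pairs, 21 and 13 at the periportal and 42 and 46 at the pericentral end. The 27 ribosomal protein genes had 0.18 and -0.06, with Rpl3 at 1.08-fold and 1.11-fold.

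**Figure D5:**
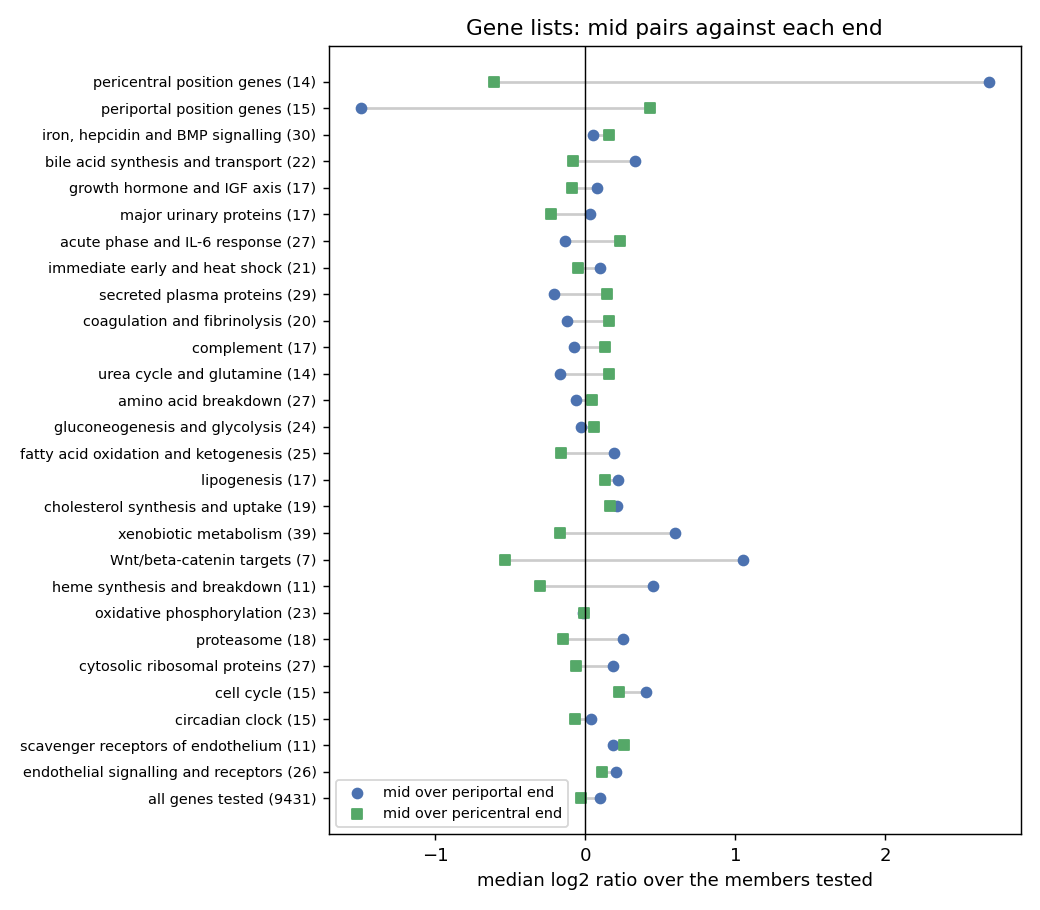
Median log2 ratio of the mid-score level to the periportal end (blue circles) and to the pericentral end (green squares) for each gene list, with the number of members tested in brackets. Cell cycle, lipogenesis, cholesterol and both endothelial lists have both medians above those of all genes tested. The 392 endothelial genes tested, not drawn, had medians of 0.13 and 0.16 over the periportal and pericentral ends. The scavenger receptor list had 0.18 and 0.26, and the endothelial signalling list 0.21 and 0.11, the latter under the endothelial median.

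The other genes named by the size of the smaller ratio had 79 to 154 UMIs in mid-score pairs. Myo5b, a motor of vesicle transport, had 154, against 94 at the periportal and 136 at the pericentral end. It was above both in 5 of the 5 blocks with enough UMIs. Blocks were admitted by UMIs summed over the groups, so a high mid-score count helped a block to pass. Among the blocks left out, Myo5b was above both ends in blocks 1, 3, 6, 9, 12 and 16. It lay between the ends in blocks 2, 5, 7, 8 and 15, and below both in block 4. Epc1 (a chromatin protein) had 142, Med29 (a Mediator subunit) 120, Sirpa (a CD47 receptor) 105, Hdac3 (a histone deacetylase) 104 and Ifi203 (an interferon-induced gene) 101. Topbp1 (DNA replication) had 98, Cad (pyrimidine synthesis) 90, Snord13 (a small nucleolar RNA) 88, Akap12 (a kinase anchor) 87 and Icam2 (an endothelial adhesion protein) 79. Their smaller ratios lay between 1.40-fold and 1.51-fold. When wells were ordered by the position genes, Hdac3 was lower than both ends, at 0.97-fold and 0.71-fold, and Myo5b lay between them, at 1.43-fold and 0.70-fold.

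The 10 genes named below both ends had 43 to 108 UMIs in mid-score pairs. Mtmr6, a lipid phosphatase, had 81, against 135 at the periportal and 150 at the pericentral end, and was below both in 4 of 5 blocks. Dhtkd1, an enzyme of lysine breakdown, had 94, against 161 at each end. Nsf, an ATPase of membrane fusion, had 108, against 164 at the periportal and 184 at the pericentral end. Fbxl20, an F-box protein, had 103, against 153 at the periportal and 191 at the pericentral end. Vps52 (a vesicle tether) had 88, Vkorc1l1 (a vitamin K reductase) 73, Esyt1 (a membrane tether) 47 and AC027184.1 43. The interferon-induced genes Cxcl10 and Oasl1 each had 53 UMIs in mid-score pairs, but single wells held up to 36 UMIs of Cxcl10 and 10 of Oasl1 at the periportal end, and up to 25 and 14 at the pericentral end. Without block 15 Cxcl10 was no longer lower than both ends.

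The groups differed little in depth, with the periportal end the deepest. The median well had 9203 gene UMIs in mid-score pairs, 10801 at the periportal and 9272.5 at the pericentral end, and the sums were 10213307, 11704484 and 13309553. The 16 endothelial markers summed to 960 UMIs per 1000000 in mid-score pairs, 866 at the periportal and 842 at the pericentral end, with none at 0. The 12 hepatocyte markers summed to 146229, 191630 and 126294 in mid-score, periportal and pericentral pairs. In the same order stellate markers summed to 86.2, 62.9 and 85.6 with Acta2 at 0, cholangiocyte markers to 161, 162 and 178 with Krt19 and Krt7 at 0, and erythroid markers to 106, 101 and 110. Kupffer markers summed to 9.30, 10.00 and 6.39, monocyte and dendritic markers to 4.01, 5.72 and 4.21, B cell markers to 3.23, 1.62 and 3.68 with Cd79a at 0, T and NK markers to 1.17, 0.34 and 0.30 with Cd3d, Cd3g and Trac at 0, and neutrophil markers to 0.20, 0.43 and 0.23.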

How the data were processed

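The deposited tables hold raw counts: whole numbers of UMIs per gene and well, which the authors made from MARS-seq reads and did not normalize. The submitters' processing notes name bcl2fastq 2.15.0.4 and the genome build mm9. An aligner or annotation was not given in the sources used here. Spike-in rows (92, with 0.715% of UMIs) were left out, as were 68 symbols that differ only in letter case. UMIs were summed per group and divided by the group's total (Python 3.11.15, numpy 2.4.6, scipy 1.17.1, pandas 2.3.3). Intervals are at 95%, exact Poisson for a level and conditional binomial for a ratio. With 1 sample a group, no test was run and calls are by size. The summing and calling steps were tested on simulated data.

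Genes were named by rule. Among genes with at least 200 UMIs whose intervals exclude 1 at both ends, these were the 15 highest and 10 lowest by the smaller ratio, plus 5 endothelial genes a side (at least 60 UMIs), called list members, and the 7 candidates. Lists with no call give up to 2 members nearest to one. Some of these genes are not reported here. Members and lists were chosen with earlier results of these data known. Endothelial-marked wells were those of 3720 single-cell wells with at least 300 UMIs, at least 3 UMIs of endothelial markers and none of Kupffer, T, NK or B cell markers. The planned 10 score groups became 9 through ties. Alternatives covered scaling, depth, filters, limits, scores and blocks.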

Additional observations from a re-analysis of the deposited data

How the results depend on the processing

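No paired analysis was possible because wells and their blocks are tied to no animal or library by any source; values within blocks of well numbers stand beside the results. Leaving out each block in turn gave 163 to 197 genes above and 85 to 109 below both ends, 20 to 31 endothelial genes above and 26 to 35 below, and a median position of 66.1% to 72.1%. The genes changed more than the counts: 113 to 160 of the 171 and 58 to 91 of the 92 were shared. Within blocks 54 and 33 were shared, by the position genes 44 and 19, and with wells thinned to 2000 UMIs 6 and 0. Thinning lowers every count, and 128 of the 171 and 75 of the 92 had fewer than 300 UMIs before it. The thinned overlap was thus bound to be small and cannot tell whether the genes changed. Counts followed the filter: 444 above and 278 below at 30 UMIs (62 and 57 endothelial), 43 and 17 at 300 UMIs, 1077 and 775 with no filter. They followed the fold: 15 and 14 at 1.5-fold (8 and 10 endothelial), 910 and 479 at 1.1-fold (70 and 78 endothelial). Means of well shares gave 182 below (44 endothelial), wells thinned to 2000 UMIs 147 below (13 endothelial above and 12 below), and the 45th to 55th percentile against the outer 10% 293 and 169. Wells with at least 20 score UMIs gave 16 endothelial genes above. Endothelial genes per all gene UMIs gave 58 and 18, and at 40 times the pair level 7 and 9. The mid group at scores of 0.4 to 0.6, chosen after seeing the data, gave 530 and 421 (65 and 65 endothelial). Leaving out blocks 1 and 2, also chosen afterwards, gave 170 and 105.

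The log2 ratio that decides a call, the smaller one above both ends and the larger one below, changed sign for these genes: with 3 equal groups, Vps52 0.0468 and Fbxl20 0.0072; within blocks, Fbxl20 0.21; by the position genes, Myo5b -0.51, Hdac3 -0.49, AC027184.1 0.10, Cxcl10 0.49 and Nsf 0.01; without block 15, Cxcl10 0.0555 (-0.6397 at the other extreme, without block 16); at scores of 0.4 to 0.6, Cxcl10 0.0189, Vps52 0.0419, Nsf 0.19 and Fbxl20 0.041. The cause was not tested. Hamp, Hamp2 and Ccnd1 kept their sign in every alternative run. Depth limits the calls: 128 of the 171 genes above and 75 of the 92 below had fewer than 300 UMIs.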

Other observations

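Ordering the wells by the position genes gave 11 genes of at least 1000 UMIs above both ends, 7 of them shared with the 9 found by the 5-gene score. The other 4 included the lipid synthesis genes Elovl6 and Scd1. That order also gave 4 genes below both ends, where the 5-gene score gave none: the acute phase genes Orm2, Saa1 and Saa2 and the urinary protein gene Mup14. With the 5-gene score Saa1 had 745 UMIs per 1000000 in mid-score pairs, 717 at the periportal and 411 at the pericentral end, so the place of the serum amyloid genes depends on the score. Hamp and Hamp2 were the only genes of at least 1000 UMIs above both ends by the 5-gene score that were also called with percentiles taken within blocks, where 4 genes were called in all.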
